A study of Rattus norvegicus with 24 samples.

Results

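Pecam1, Tek and Sox17 are genes by which endothelial cells, the inner lining of blood vessels, are commonly recognised, and they were followed here in the mesenteric arteries of rats given estradiol benzoate, testosterone or vehicle. All probes whose single gene symbol was one of these names were taken, each probe on its own. The array held 6 such probes, 2 for each of the 3 genes, among 10399 probes in all (6455 gene symbols), and all 6 had enough values to be tested.

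The study measured total RNA of mesenteric arteries on one-colour CodeLink arrays to ask how estrogen and testosterone change gene expression in these vessels. All 12 rats were female Sprague Dawley animals that had been ovariectomised at 3 weeks of age and left to recover for 2 weeks, so that the vehicle animals also lacked ovaries. They were then injected intraperitoneally for 4 days with estradiol benzoate at 0.15 mg/kg/day, with testosterone at 1 mg/kg/day, or with the sesame oil vehicle, 4 animals in each group, and were 5.5 weeks old at the end. Each animal gave one RNA sample, which was hybridised to 2 arrays as technical duplicates, 24 arrays in all. The arteries were dissected by hand from fat, veins and connective tissue, and RNA of the whole vessel was measured, so a lower level from fewer endothelial cells and one from less RNA per cell cannot be told apart.

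Pecam1 (CD31) is an adhesion molecule at the contacts between endothelial cells, and it is also carried by platelets and many leukocytes. Tek encodes Tie2, the receptor tyrosine kinase of endothelial cells that binds the angiopoietins, with Angpt1 as its activating ligand and Angpt2 as a ligand that can block or activate it depending on the setting. Sox17 is a transcription factor of the SoxF group, with Sox7 and Sox18 as its relatives, and in mice it takes part in giving arteries their identity.

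Levels are log2 of the deposited spot intensity, whose median on every array was between 0.926 and 0.951, and the level of an animal is the mean over its 2 arrays. The duplicate arrays of an animal correlated at 0.976 to 0.993 over all probes. Brightness depends on the probe as well as on the RNA, so a brighter probe is not read as more RNA than a dimmer one. Pecam1 was covered by probe 6346, at percentile 99.1 of mean brightness over the 10228 tested probes, and by probe 11017, at percentile 75.3. Tek had probe 3427 at percentile 95.4 and probe 22102 at percentile 26.8. For Sox17 the percentiles were 71.5 for probe 20420 and 29.1 for probe 8230. The dimmer probe of each gene was also the more variable one: the SD between animals of one group was 0.117 to 0.155 for the 3 brighter probes and 0.363 to 0.576 for the 3 dimmer ones, on the log2 scale. The SD of duplicate arrays of one animal was smaller in each case, between 0.0607 and 0.152.

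No probe of the 3 genes passed an adjusted p under 0.05 in any comparison. The fit (limma, all 12 animals and all tested probes, Benjamini-Hochberg adjustment) called 0% of probes between estradiol benzoate and vehicle, where 1376 probes had an unadjusted p under 0.05. It called 0.0489% of probes, 5 in number, between testosterone and vehicle, and 0.0293%, or 3, between estradiol benzoate and testosterone. Over the 3 groups together, limma's moderated F test called 0.00978% of probes, which was 1 probe. At an unadjusted p under 0.05, 2 of the 6 probes stood out between estradiol benzoate and vehicle, both of Tek, against 13.5% of all probes. Between testosterone and vehicle there were 3 of 6, both Tek probes and Sox17 probe 20420, against 14% of all probes. Between estradiol benzoate and testosterone there were 0 of 6, against 4.13% of all probes, and by the F test 2 of 6, Tek probe 22102 and Sox17 probe 20420, against 11.9%. Both comparisons with vehicle use the same 4 vehicle animals, so their values are not independent.

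**Figure D1:**
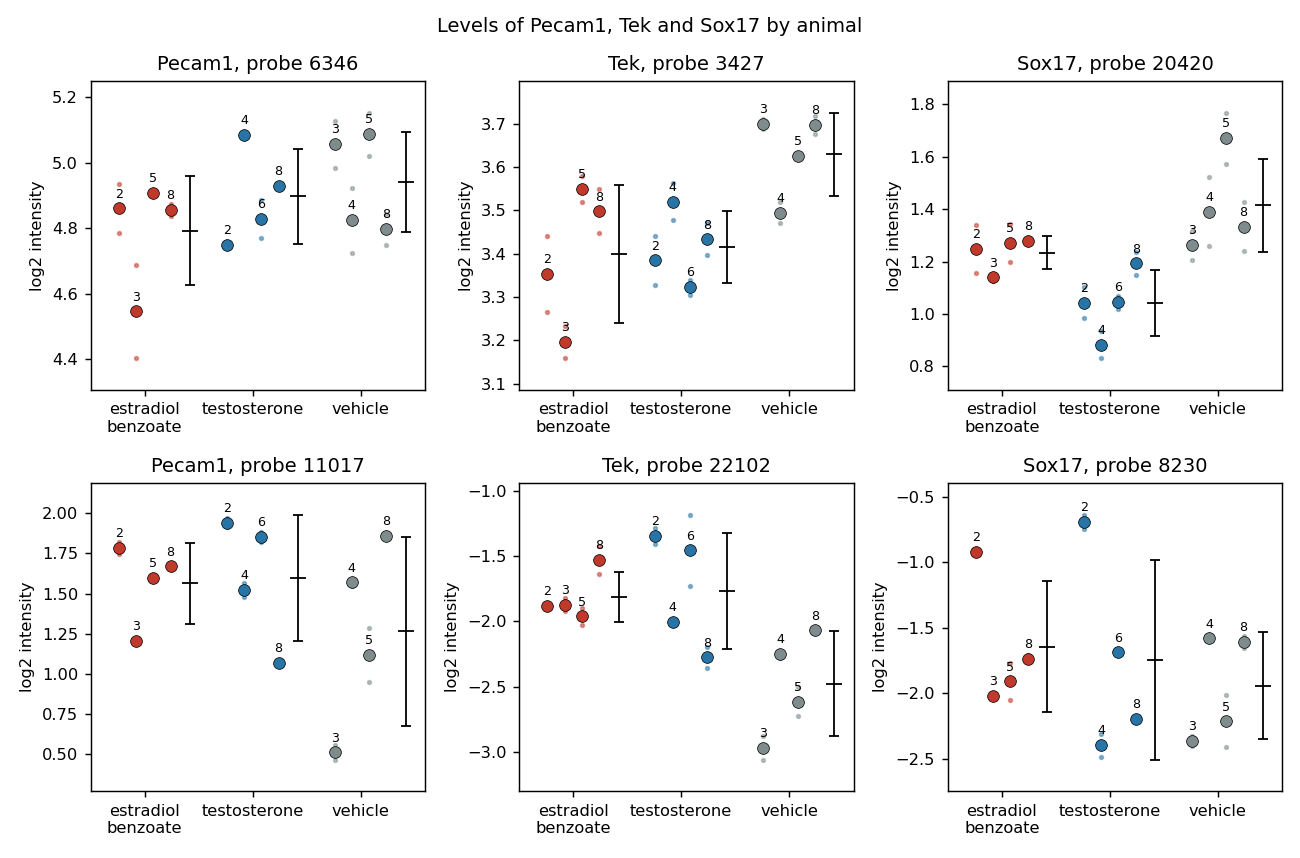
Level of each probe (log2 intensity, vertical axis) in the estradiol benzoate, testosterone and vehicle animals. Large points are animals, numbered as in the labels, small points are their single arrays, and the bars give the group mean and SD over 4 animals; the upper row holds the brighter probe of each gene and the lower row the dimmer one. The 4 testosterone animals lie below the 4 vehicle animals for Sox17 probe 20420, and the 4 estradiol benzoate animals lie above the 4 vehicle animals for Tek probe 22102.

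Tek was read by its bright probe at slightly lower levels under both hormones. Probe 3427 stood at 3.35, 3.20, 3.55 and 3.50 in the estradiol benzoate animals. In the testosterone animals it was at 3.38, 3.52, 3.32 and 3.43. The vehicle animals had 3.70, 3.49, 3.63 and 3.70. All 8 hormone-treated animals were below the vehicle mean, but the lowest vehicle animal lay below the highest animal of each hormone group, so the groups overlapped. The means were 3.40 ± 0.159 under estradiol benzoate and 3.63 ± 0.0961 under vehicle (SD, n = 4 each), a difference of -0.23 (SE 0.0953, 95% interval -0.44 to -0.02) or a ratio of 0.853. By limma this difference had an unadjusted p of 0.0333 and an adjusted p of 0.327, and the exact two-sided permutation test over the 70 splits of the 8 animals gave 0.0857. Testosterone animals averaged 3.42 ± 0.0834 and differed from vehicle by -0.21 (95% interval -0.42 to -0.01), with an unadjusted p of 0.0449, an adjusted p of 0.349 by limma and an exact permutation p of 0.0571. The smallest two-sided p that 4 animals against 4 can give in that test is 0.0286. After quantile normalization of the arrays the difference was -0.17 for estradiol benzoate and -0.14 for testosterone.

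The dim probe of Tek read the other way. Probe 22102 was at -1.88, -1.87, -1.96 and -1.53 in the estradiol benzoate animals and at -1.34, -2.0, -1.45 and -2.28 in the testosterone animals. In the vehicle animals it was at -2.97, -2.25, -2.62 and -2.07. All 4 estradiol benzoate animals were above all 4 vehicle animals, whereas testosterone animal 8 lay within the vehicle range. It was 1 of 6 probes whose estradiol benzoate and vehicle animals did not overlap, as was the case for 7.82% of all probes. The means were -1.81 ± 0.192 under estradiol benzoate, -1.77 ± 0.445 under testosterone and -2.48 ± 0.400 under vehicle (SD, n = 4 each). The difference from vehicle was 0.67 (SE 0.235, 95% interval 0.15 to 1.18; ratio 1.59) for estradiol benzoate, with an unadjusted p of 0.0156 and an adjusted p of 0.291 by limma and an exact permutation p of 0.0286. For testosterone it was 0.71 (95% interval 0.20 to 1.22; ratio 1.64), with an adjusted p of 0.269 by limma and an exact permutation p of 0.0857. The interval of the bright probe lay below 0 and that of the dim probe above 0 in both comparisons with vehicle, and the files do not say which part or transcript of Tek each probe reads. Testosterone animal 4 had a value for the dim probe on 1 of its 2 arrays, as had vehicle animal 5 for the bright probe.

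Sox17 gave the lowest p of the 6 probes, in the testosterone animals. Its brighter probe 20420 was at 1.25, 1.14, 1.27 and 1.28 under estradiol benzoate. Testosterone animals had 1.04, 0.88, 1.04 and 1.19, against 1.26, 1.39, 1.67 and 1.33 in vehicle animals. All 4 testosterone animals were below all 4 vehicle animals, and it was 1 of 6 probes with no overlap between these groups, against 5.59% of all probes. The estradiol benzoate animals lay close together and overlapped both other groups. The mean was 1.23 ± 0.0645 under estradiol benzoate, 1.04 ± 0.127 under testosterone and 1.41 ± 0.179 under vehicle (SD, n = 4 each).

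Testosterone minus vehicle came to -0.37 for this probe (SE 0.102, 95% interval -0.60 to -0.15), a ratio of 0.772. The unadjusted p by limma was 0.00357 and the adjusted p 0.213, and the exact permutation test gave 0.0286, the smallest p it can give here. Estradiol benzoate differed from vehicle by -0.18 (95% interval -0.40 to 0.04), with an adjusted p of 0.448 by limma and an exact permutation p of 0.0857. Vehicle animal 5 was the highest of all animals: without it the difference was -0.09 for estradiol benzoate and -0.29 for testosterone. Estradiol benzoate minus testosterone was 0.19 (95% interval -0.03 to 0.42), with an adjusted p of 0.999 by limma and an exact permutation p of 0.0571.

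The dim Sox17 probe 8230 did not separate the groups. Estradiol benzoate animals stood at -0.92, -2.02, -1.91 and -1.74. The testosterone animals were at -0.69, -2.40, -1.69 and -2.20, and the vehicle animals at -2.37, -1.58, -2.21 and -1.61. Animal 2 of each hormone group was far above its group mates, and the 3 groups overlapped over most of their range. The difference from vehicle was 0.30 (95% interval -0.50 to 1.10) for estradiol benzoate and 0.20 (95% interval -0.60 to 1.00) for testosterone, with adjusted p of 0.737 and 0.833 by limma. Leaving out 1 animal at a time moved these differences between 0.05 and 0.42 and between -0.15 and 0.42. Without testosterone animal 2 the sign of the testosterone difference turned, to -0.15.

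The bright Pecam1 probe 6346 did not separate the hormone groups from vehicle. It stood at 4.86, 4.55, 4.91 and 4.86 in estradiol benzoate animals and at 4.75, 5.08, 4.83 and 4.93 in testosterone animals. Vehicle animals had 5.06, 4.82, 5.09 and 4.80. Estradiol benzoate animal 3 was the lowest of all 12 animals, while the other estradiol benzoate animals lay within the vehicle range. The difference from vehicle was -0.15 (SE 0.114, 95% interval -0.40 to 0.10) for estradiol benzoate, with an adjusted p of 0.566 by limma and an exact permutation p of 0.286. Without estradiol benzoate animal 3 it was -0.07, and after quantile normalization -0.04. Testosterone differed from vehicle by -0.04 (95% interval -0.29 to 0.21; adjusted p 0.883 by limma, exact permutation p 0.714), and this sign turned under quantile normalization, to 0.04.

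The second Pecam1 probe, 11017, had wide spread within every group. Estradiol benzoate animals were at 1.79, 1.21, 1.60 and 1.67. Testosterone animals were at 1.94, 1.52, 1.85 and 1.07, the last from a single array. In vehicle animals the values were 0.51, 1.57, 1.12 and 1.86, so the vehicle group spanned nearly the whole range. The difference from vehicle was 0.30 (95% interval -0.31 to 0.91) for estradiol benzoate and 0.33 (95% interval -0.28 to 0.94) for testosterone, with adjusted p of 0.644 and 0.609 by limma. Vehicle animal 3 was the lowest, and leaving out 1 animal at a time moved these differences between 0.05 and 0.50 and between 0.08 and 0.53.

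**Figure D2:**
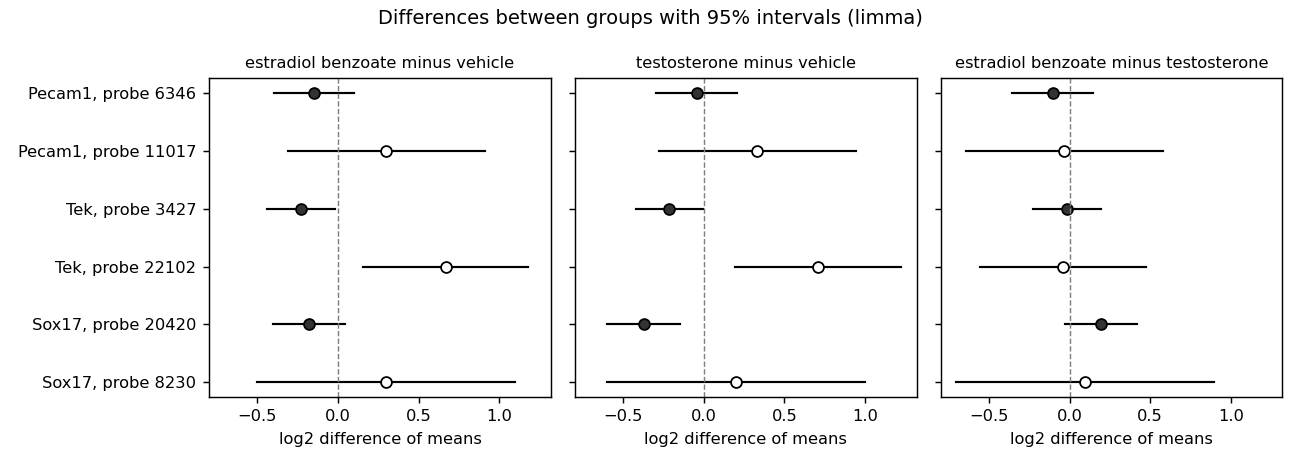
Difference of group means (log2, horizontal axis) for each probe, with its 95% interval from limma, for estradiol benzoate minus vehicle, testosterone minus vehicle and estradiol benzoate minus testosterone. Filled points are the brighter and open points the dimmer probe of a gene; in both comparisons with vehicle all 3 filled points lie left of 0 and all 3 open points right of it.

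For Tek, estradiol benzoate minus testosterone was -0.02 (95% interval -0.22 to 0.19) for probe 3427 and -0.04 (95% interval -0.56 to 0.47) for probe 22102. For Pecam1 that difference was -0.11 (95% interval -0.36 to 0.14) with probe 6346 and -0.03 (95% interval -0.64 to 0.58) with probe 11017. Sox17 probe 8230 gave 0.10 (95% interval -0.70 to 0.90). In this comparison 0 of the 6 probes had groups that did not overlap, against 3.05% of all probes. The intervals of the dimmer probe of each gene leave room for differences of more than 0.4 on the log2 scale in either direction.

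For each of the 3 genes the brighter probe was lower and the dimmer probe higher under both hormones than under vehicle. Of all 741 genes with more than 1 probe, the brightest probe was lower and the next one higher in 23.1% for estradiol benzoate and in 28.1% for testosterone. Among the 259 of them whose second probe was at least 2.5 log2 units dimmer, the shares were 30.1% and 32.0%. Over all probes, the second of 5 equal bands of brightness, which holds the dim probes of Tek and Sox17, had a median difference from vehicle of 0.064 for estradiol benzoate and 0.084 for testosterone. The brightest band, with Pecam1 probe 6346 and Tek probe 3427, had medians of -0.063 for estradiol benzoate and -0.079 for testosterone, and 35.4% and 29.9% of its probes were higher than under vehicle. The fourth band, with Sox17 probe 20420 and Pecam1 probe 11017, had -0.031 in both comparisons. The dimmest band, with none of the 6 probes, did not share the rise of the second. Its medians were -0.02 for estradiol benzoate and -0.005 for testosterone. The third band had 0.004 for estradiol benzoate and 0.014 for testosterone. The part of this pattern in the values of the 6 probes was not tested beyond quantile normalization, which left Sox17 probe 20420 at -0.34 for testosterone and Tek probe 22102 at 0.62 for estradiol benzoate and 0.64 for testosterone. The same step made both differences of Tek probe 3427 from vehicle smaller. It made those of Pecam1 probe 11017 larger, at 0.34 for estradiol benzoate and 0.37 for testosterone. Pecam1 probe 6346 then stood at -0.04 for estradiol benzoate and 0.04 for testosterone.

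**Figure D3:**
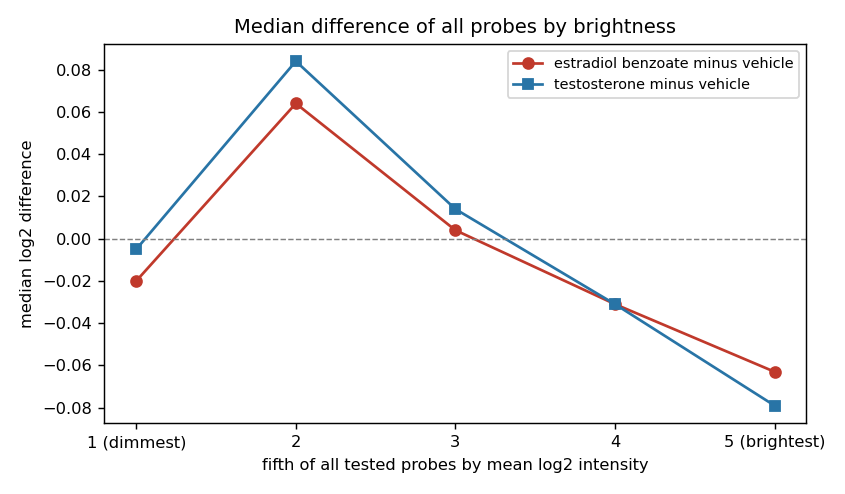
Median log2 difference of all tested probes (vertical axis) in 5 equal bands of brightness (horizontal axis, dimmest to brightest), for estradiol benzoate minus vehicle and testosterone minus vehicle. Medians lie at -0.02 and -0.005 in the dimmest band, at 0.064 and 0.084 in the second band and at -0.063 and -0.079 in the brightest band.

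The paired probes of a gene did not follow each other over the 12 animals. Pearson's r was -0.628 for Tek (permutation p 0.0283, adjusted 0.0894; Spearman's rho -0.678, permutation p 0.0186, adjusted 0.0697), and -0.588 without the 2 animals farthest from the median. Taken as deviations from the group means, the Tek probes had r of -0.238. For Pecam1, r was -0.405 (permutation p 0.194, adjusted 0.291) and rho -0.601 (permutation p 0.0428, adjusted 0.107), with r of -0.73 without the 2 farthest animals. Sox17 had r of -0.101 (permutation p 0.75, adjusted 0.75) and rho of 0.0629 (permutation p 0.85, adjusted 0.85), and r of -0.24 without the 2 farthest animals. The adjustment covers the 15 pairs among the 6 probes, with 100000 permutations each. Genes with a second probe at least 2.5 log2 units dimmer had a median r of 0.162 between their probes, and 38.2% of them were below 0.

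The pairs with the highest r held Pecam1 probe 11017 with the dimmer probe of Tek or of Sox17. Pecam1 probe 11017 was itself dim only beside the other Pecam1 probe. Its brightness percentile of 75.3 was above the 71.5 of Sox17 probe 20420. Pecam1 probe 11017 and Tek probe 22102 had r of 0.834 (permutation p 0.00061, adjusted 0.00915) and rho of 0.741 (permutation p 0.00787, adjusted 0.059), with r of 0.674 without the 2 farthest animals and 0.881 as deviations from the group means. Pecam1 probe 11017 and Sox17 probe 8230 had r of 0.726 (permutation p 0.00844, adjusted 0.0633) and rho of 0.818 (permutation p 0.00204, adjusted 0.0306), and r of 0.711 without the 2 farthest. Between Tek probe 22102 and Sox17 probe 8230, r was lower, at 0.627 (permutation p 0.0298, adjusted 0.0894). Their rho was 0.566 (permutation p 0.0588, adjusted 0.126), and r was 0.35 without the 2 farthest. The bright probes of Pecam1 and Tek had r of 0.677 (permutation p 0.0148, adjusted 0.074) and rho of 0.538 (permutation p 0.0747, adjusted 0.126). As deviations from the group means their r was 0.706. Without estradiol benzoate animal 3 and vehicle animal 5, the 2 farthest from the median of the Pecam1 probe, it was 0.385, so the value depended in part on those animals.

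**Figure D4:**
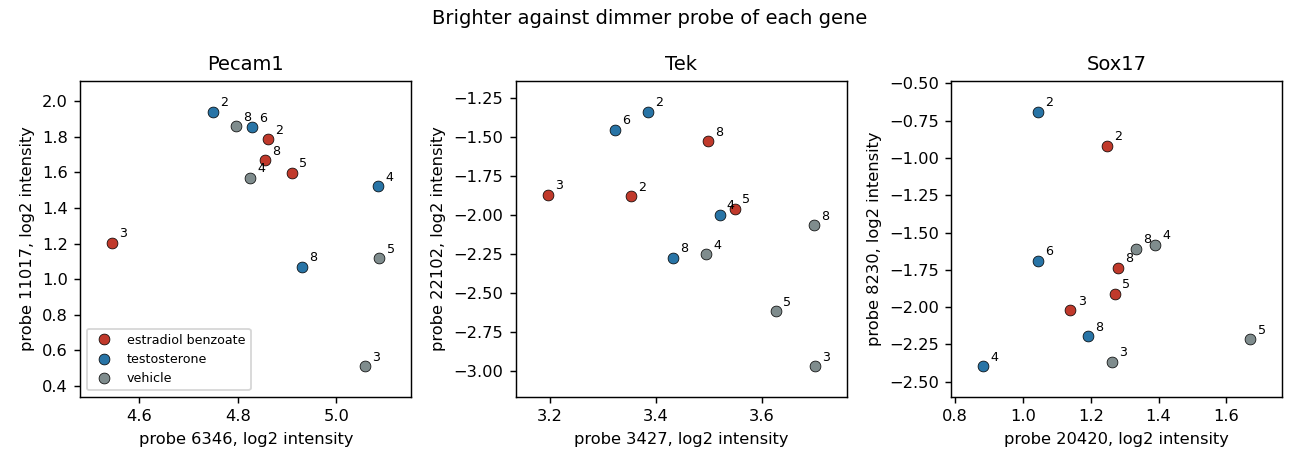
Brighter probe (horizontal axis) against dimmer probe (vertical axis) of Pecam1, Tek and Sox17, both as log2 intensity, with 1 point per animal coloured by group and numbered as in the labels. For Tek, vehicle animals 3 and 5 have the lowest values of probe 22102 among the 12 animals, and vehicle animal 4 stands at 3.49 for probe 3427, within the range of both hormone groups.

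Other endothelial genes gave the setting for these values. Of 27 genes listed as the endothelial core, 11 beside Pecam1, Tek and Sox17 had a tested probe with a single symbol, and 0 of them passed the adjusted threshold or an unadjusted p under 0.05 in either comparison with vehicle. For estradiol benzoate 5 were higher and 6 lower, with a median of -0.02, and for testosterone 6 were higher and 5 lower, with a median of 0.07, beside a median of -0.01 over all probes in both. Tie1, the partner receptor of Tek, differed from vehicle by -0.02 (SE 0.103) for estradiol benzoate and -0.07 for testosterone. Kdr, the main VEGF receptor of endothelium, was at 0.48 (SE 0.344) for estradiol benzoate and 0.11 for testosterone, and Flt1, another VEGF receptor, at 0.01 (SE 0.104) for estradiol benzoate and 0.14 for testosterone. Vwf, the clotting glycoprotein that endothelial cells store, was at -0.15 (SE 0.258) for estradiol benzoate and 0.11 for testosterone. The transcription factor gene Erg was at -0.24 (SE 0.259) for estradiol benzoate and -0.51 for testosterone, and the adhesion gene Icam2 at -0.26 (SE 0.135) for estradiol benzoate and -0.22 for testosterone. Second probes of Tie1 gave 0.34 for estradiol benzoate and 0.33 for testosterone, more positive than the brighter probe, and probe 20637 of Flt1 gave 0.49 for estradiol benzoate and 0.34 for testosterone and probe 1128 gave 0.17 for estradiol benzoate and 0.20 for testosterone. Cdh5, Sox7 and other listed genes without such a probe were not analysed here.

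**Figure D5:**
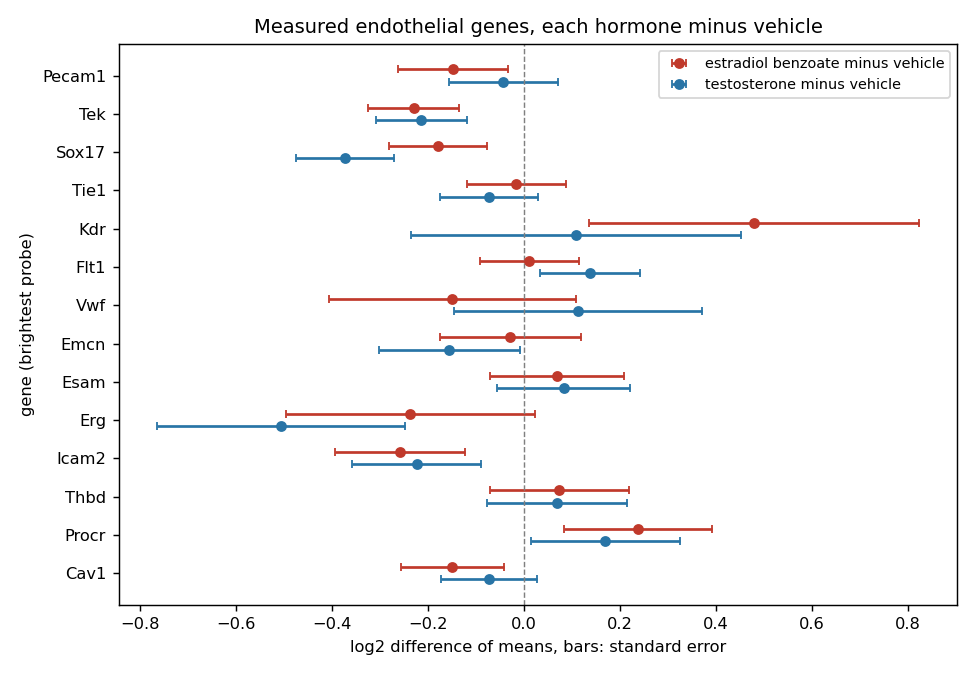
Difference from vehicle (log2, horizontal axis) of the brightest probe of each measured endothelial core gene (rows), for estradiol benzoate and testosterone, with bars of 1 standard error from limma. Tek, Sox17 and Icam2 lie left of 0 by more than their standard error for both hormones. Procr lies right of 0 by more than its standard error for both, at 0.24 for estradiol benzoate and 0.17 for testosterone (SE 0.155). Genes such as Flt1, Esam and Thbd lie near 0 or right of it.

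The 10 core genes with a value in every animal had a mean log2 level of 1.17 ± 0.083 under estradiol benzoate, 1.12 ± 0.131 under testosterone and 1.15 ± 0.160 under vehicle (SD, n = 4 each). The groups' ranges overlapped, and the summed intensity of these genes was 30.2 to 36.2 under estradiol benzoate, 31.2 to 38.7 under testosterone and 29.7 to 38.6 under vehicle. The core mean weighs all 10 genes alike, so genes with wide spread can move it more than the others. Kdr, one of them, had an SD of 0.0867 under estradiol benzoate, 0.726 under testosterone and 0.588 under vehicle. How far the core mean reflects endothelial content was not tested. Over the 12 animals, the core mean did not follow the bright probes. Pearson's r was -0.00728 for Pecam1 (permutation p 0.982, adjusted 0.982; rho 0.00, permutation p 1.00, adjusted 1.00), with 0.183 without the 2 farthest animals. It was 0.018 for Tek (permutation p 0.956, adjusted 0.982; rho 0.0559, permutation p 0.87, adjusted 1.00), with -0.0811 without those 2. For Sox17 it was -0.148 (permutation p 0.649, adjusted 0.982; rho 0.021, permutation p 0.956, adjusted 1.00), with -0.557 without vehicle animal 4 and testosterone animal 8. Those 3 relations form one family for the adjustment. Relative to the core mean, the bright Tek probe stood at 2.23 ± 0.0762 under estradiol benzoate, 2.29 ± 0.157 under testosterone and 2.48 ± 0.244 under vehicle, and Sox17 probe 20420 at 0.065 ± 0.0289 under estradiol benzoate, -0.0822 ± 0.249 under testosterone and 0.263 ± 0.281 under vehicle. Both sets overlapped between the groups.

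Among the ligands and signalling partners of Tek, 9 genes were measured beside Tek itself and 0 passed the adjusted threshold in any comparison. Their median difference was -0.02 for estradiol benzoate and 0.01 for testosterone. Angpt2 stood apart at the unadjusted level: its levels were -0.40, -0.30, -0.41 and -0.17 in estradiol benzoate animals and -0.54, -0.97, -0.99 and -0.58 in testosterone animals, against -1.24, -1.20, -1.11 and -0.65 in vehicle animals. All estradiol benzoate animals lay above all animals of both other groups. Of all probes, 7.82% had no overlap between estradiol benzoate and vehicle in one direction or the other, and 3.05% had none between estradiol benzoate and testosterone. Estradiol benzoate minus vehicle was 0.73 (SE 0.151, ratio 1.66), with an unadjusted p of 0.000475 and an adjusted p of 0.125 by limma. Testosterone minus vehicle was 0.28 (SE 0.151), with an adjusted p of 0.428, and estradiol benzoate minus testosterone 0.45, with an adjusted p of 0.872 by limma.

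Angpt1 was at 0.06 (SE 0.149) for estradiol benzoate and 0.17 for testosterone. Grb14, an adaptor that binds activated Tek, was at 0.38 (SE 0.143) for estradiol benzoate and 0.29 for testosterone, and Foxo1, a transcription factor that Tek signalling holds back through Akt, at 0.18 (SE 0.149) for estradiol benzoate and 0.44 for testosterone. The adaptor gene Tnip2 was at -0.17 for estradiol benzoate and -0.23 for testosterone, and the phosphatase gene Ptpn11, which acts downstream of both Tek and Pecam1, at -0.03 for estradiol benzoate and -0.14 for testosterone. At an unadjusted p under 0.05 the list held 2 higher genes for estradiol benzoate, Angpt2 and Grb14, and 1 for testosterone, Foxo1, and 0 lower genes in both, beside 13.5% of all probes for estradiol benzoate and 14% for testosterone in either direction.

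Genes of endothelial junctions and leukocyte adhesion, the group Pecam1 belongs to, had 13 other measured members, with 7 higher and 6 lower under each hormone and medians of 0.01 in both comparisons. Vcam1, which captures leukocytes, was at -0.34 (SE 0.145) for estradiol benzoate and -0.25 for testosterone, and Cd99, a partner in leukocyte passage, at 0.39 (SE 0.204) for estradiol benzoate and 0.34 for testosterone. Of the junction genes, Esam was at 0.07 for estradiol benzoate and 0.08 for testosterone, Jam2 at 0.01 for estradiol benzoate and 0.02 for testosterone and Tjp1 at -0.05 for estradiol benzoate and -0.02 for testosterone. In the group of Sox17, the SoxF and arterial genes, 9 others were measured: 4 higher and 5 lower for estradiol benzoate, with a median of -0.13, and 2 higher and 7 lower for testosterone, with a median of -0.04. Sox18 was at 0.03 (SE 0.184) for estradiol benzoate and -0.14 for testosterone. Among Notch pathway genes, Notch1 was at 0.05 for estradiol benzoate and -0.00078 for testosterone, its ligand gene Jag1 at -0.36 (SE 0.156) for estradiol benzoate and -0.09 for testosterone, and its target Hes1 at 0.34 (SE 0.199) for estradiol benzoate and 0.55 for testosterone. The arterial connexin genes Gja4 and Gja5 were at -0.13 and -0.14 for estradiol benzoate and at -0.05 and -0.17 for testosterone. The dimmer Gja5 probe 13007 had the opposite sign, at 0.29 for estradiol benzoate and 0.30 for testosterone. Acvrl1, a receptor of bone morphogenetic proteins in endothelium, was at 0.22 (SE 0.0907) for estradiol benzoate and 0.25 for testosterone.

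In the remaining endothelial groups 0 genes passed the adjusted threshold either. Of 5 venous and lymphatic genes, all 5 were higher for estradiol benzoate, with a median of 0.35, and 3 of 5 for testosterone, with a median of 0.16. Nrp2, a co-receptor for lymphatic growth factors, was at 0.55 (SE 0.216) for estradiol benzoate and 0.53 for testosterone, and Lyve1, a hyaluronan receptor of lymphatic vessels that macrophages also carry, at 0.27 (SE 0.266) for estradiol benzoate and -0.35 for testosterone. The 10 VEGF ligand and receptor genes had medians of 0.14 for estradiol benzoate and 0.17 for testosterone, with Vegfa itself at -0.31 (SE 0.179) for estradiol benzoate and -0.19 for testosterone. Of 13 genes of shear response and tone, 7 were higher and 6 lower for estradiol benzoate, with a median of 0.07, and 6 were higher and 7 lower for testosterone, with a median of -0.02. Klf4, a shear-induced transcription factor, was at -0.16 (SE 0.0936) for estradiol benzoate and -0.54 for testosterone, where it had an unadjusted p of 0.000107 and an adjusted p of 0.109 by limma. Bmpr2, a partner of Acvrl1, was at -0.47 (SE 0.16) for estradiol benzoate and -0.68 for testosterone. Over the 7 endothelial lists together, 60 other genes were measured. At an unadjusted p under 0.05, 7 were higher and 4 lower for estradiol benzoate, or 18.3%, and 5 were higher and 3 lower for testosterone, or 13.3%, beside the 13.5% and 14% of all probes given above. These are unlike sets: each listed gene counts by its brightest probe, whereas all probes include second probes and probes without a symbol.

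Markers of other cells moved in single animals and in groups. Estradiol benzoate animal 3, the lowest for the bright probes of Pecam1 and Tek, had a summed intensity of 99.8 over 7 pancreatic acinar genes, against 0.425 to 4.81 in the other 11 animals. Vehicle animal 5, the highest for Sox17 probe 20420, had the highest sum over 9 hepatocyte genes, 31.8, against 1.72 to 2.31 in the hormone-treated animals and 2.07 to 6.24 in the other vehicle animals. Without both animals Tek probe 3427 differed from vehicle by -0.16 for estradiol benzoate, Tek probe 22102 by 0.64 for estradiol benzoate and 0.66 for testosterone, and Sox17 probe 20420 by -0.06 for estradiol benzoate and -0.29 for testosterone. The number of probes called between testosterone and vehicle was 45 without vehicle animal 5, with 0 of the 6 among them.

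The 7 lymphocyte genes were all higher under both hormones, with medians of 0.61 for estradiol benzoate and 0.54 for testosterone and summed intensities of 0.688 to 1.16 under estradiol benzoate, 0.719 to 0.952 under testosterone and 0.442 to 0.705 under vehicle. Their probes were dim, with a lowest level in an animal of 0.00827, against array medians of 0.926 to 0.951. The lowest levels in the pancreatic and hepatocyte lists were 0.00607 and 0.00581. Of 6 white adipocyte genes 5 were higher for each hormone, with medians of 0.32 for estradiol benzoate and 0.38 for testosterone and sums of 86.7 to 91.0 under estradiol benzoate, 76.8 to 104 under testosterone and 71.7 to 83.1 under vehicle. The 8 smooth muscle and pericyte genes had medians of -0.01 for estradiol benzoate and -0.10 for testosterone, the 4 macrophage genes 0.05 for estradiol benzoate and -0.26 for testosterone, and the 5 nerve genes 0.26 for estradiol benzoate and 0.22 for testosterone. Medians of the 4 fibroblast and mesothelial genes were -0.18 for estradiol benzoate and -0.01 for testosterone. The pancreatic list had 2.92 for estradiol benzoate and 0.45 for testosterone, and the 10 hepatocyte genes had -1.10 for estradiol benzoate and -1.40 for testosterone. Of the leukocyte and platelet genes that share cells with Pecam1, Ptprc, Cd48 and Itgam were measured, with a median of 0.09 for estradiol benzoate and 0.18 for testosterone and sums of 8.67 to 10.5 under estradiol benzoate, 9.29 to 11.1 under testosterone and 6.27 to 11.3 under vehicle. The dimmer Ptprc probe 22013 was at 0.56 for estradiol benzoate and 0.495 for testosterone. No listed gene of any of these cell types passed the adjusted threshold in limma, and their part in the values of Pecam1, Tek and Sox17 was not tested beyond leaving out the 2 animals.

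The genes most like each bright probe over the 12 animals were looked up among 7034 probes with a single symbol. For Pecam1 they were Becn1 (r = 0.93), Marchf2 (r = 0.885) and Suox (r = 0.871). Tek had Med20 (r = 0.93), Nhlrc2 (r = 0.906) and Yipf1 (r = 0.895), and Sox17 had Bach1 (r = 0.909), Slc28a2 (r = 0.909) and Phex (r = 0.872). As deviations from the group means these 9 values lay between 0.752 and 0.93. They describe these 12 animals only, being the highest of all those searched.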

How the data were processed

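The authors deposited 1 linear intensity value per probe and array for 24 one-colour CodeLink arrays, per the labels with 2 arrays of the same cRNA for each of 12 animals. How spots were scanned, corrected, scaled and filtered is not given in the sources used here. Empty spots (152 to 665 per array) and 327 values at or below 0 were set as missing, log2 was taken with no pseudocount, and the 2 arrays of an animal were averaged. Groups came from the sample titles.

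A probe was tested with values in at least 3 animals of each group (10228 of 10399). Group means were estimated by limma 3.58.1 under R 4.3.3 (lmFit, eBayes; 9 residual and 2.51 prior degrees of freedom) over all 12 animals, with Benjamini-Hochberg adjustment over all tested probes, and the steps were tested on simulated data. The number of animals, 4 in each group, limits the precision. Platform annotation gave 7294 probes 1 symbol, 88 several and 3017 none; the brightest probe stood for a listed gene. Named are all probes of the 3 genes, up to 4 genes with the smallest unadjusted p per list (16 lists) and comparison, a fixed set of endothelial genes and the 3 probes most like each bright probe; Esam, Jam2, Tjp1, Thbd, Notch1, Gja4 and Edn1 were added as examples after their values were seen. Genes and lists were chosen with earlier results of these data known. Alternatives covered floors, pseudocount, scaling, filters, single arrays, priors, the groups fitted, an animal-number block and leaving out animals.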

Additional observations from a re-analysis of the deposited data

Results flagged for a closer look

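Pecam1 probe 6346 in estradiol benzoate animal 3 stood at 4.55 on the log2 scale, against 4.86 to 4.91 in the other 3 animals of its group. The gap to its nearest neighbour was 0.853 of the range of the group, above Dixon's critical value of 0.829 for 4 samples. Among the 18 sets of 4 animals looked at (6 probes in 3 groups) this was the only one past that value. Chance alone passes it in about 1 in 20 sets, so 1 among 18 is about as many as chance gives. Both arrays of this animal were low, with intensities of 25.8 and 21.2, and the same animal had the lowest level of Tek probe 3427, 3.20, and the highest sum of pancreatic acinar genes, 99.8. The link between these values was not tested.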

How the results depend on the processing

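No probe of Pecam1, Tek or Sox17 passed the adjusted threshold under any of the alternatives run, 25 for each pair of groups and 24 for the F test. Of 441 recomputed probe differences, 417 kept their direction, 24 turned it and 0 changed their side of the threshold. Tek probes 3427 and 22102, Sox17 probe 20420 and Pecam1 probe 11017 kept their direction against vehicle in every setting, except Pecam1 probe 11017 for testosterone under the animal-number block. With the arrays quantile-normalized, Pecam1 probe 6346 turned to 0.0423 for testosterone minus vehicle. With array AA alone, Tek probe 3427 turned to 0.0554 for estradiol benzoate minus testosterone. Without estradiol benzoate animal 3 and vehicle animal 5, an alternative chosen after seeing the data, estradiol benzoate minus testosterone turned to 0.0517 for Tek probe 3427 and 0.0873 for Pecam1 probe 11017, and testosterone minus vehicle to 0.00529 for Pecam1 probe 6346. Leaving out 1 animal at a time, estradiol benzoate minus testosterone ran from -0.0659 to 0.0517 for Tek probe 3427, from -0.213 to 0.0994 for Tek probe 22102, from -0.208 to 0.0873 for Pecam1 probe 11017 and from -0.146 to 0.448 for Sox17 probe 8230. Testosterone minus vehicle then ran from -0.106 to 0.00636 for Pecam1 probe 6346 and from -0.152 to 0.417 for Sox17 probe 8230. The cause of these turns was not tested.

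The animal numbers are shared across groups in 7 pairs, whose deviations from the group means correlated between -0.115 and 0.297. The highest of these was between estradiol benzoate animal 2 and testosterone animal 2. Pairs of unlike number lay between -0.278 and 0.239. Whether the numbers pair the animals was not tested. Testosterone and vehicle share only numbers 4 and 8. Number 6 occurs only in testosterone, so that animal does not count in the differences when the number enters as a replicate block. With this block, 0 of the 6 probes passed in any comparison. Testosterone minus vehicle was then -0.36 for Sox17 probe 20420, -0.386 for Sox17 probe 8230, -0.12 for Pecam1 probe 11017, 0.0226 for Pecam1 probe 6346 and 0.354 for Tek probe 22102 (0.709 without the block; adjusted p by limma 0.764 with it and 0.269 without it). Estradiol benzoate minus vehicle was then 3.6e-05 for Sox17 probe 8230 (0.296 without the block), and estradiol benzoate minus testosterone was 0.372 for Pecam1 probe 11017 and 0.26 for Tek probe 22102. The number of all probes called between testosterone and vehicle ran from 0 to 45 over the alternatives, that between estradiol benzoate and vehicle from 0 to 3, and that between estradiol benzoate and testosterone from 0 to 4. Leaving out the dimmest probes of the array kept all 6, and 3 of 6 had a value on all arrays.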

Other observations

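The dimmer probe of each gene had its own closest companions over the 12 animals. Tek probe 22102 followed Prkch (r = 0.961), Rab28 (r = 0.961) and Tcf7l2 (r = 0.96), Pecam1 probe 11017 followed Atrn (r = 0.941), Pak2 (r = 0.93) and Tmem33 (r = 0.924), and Sox17 probe 8230 followed Speg (r = 0.957), Ncoa5 (r = 0.945) and Rxrb (r = 0.936), the highest values among 7034 probes in each case. None of these names was among those most like the bright probe of the same gene. This follows from the negative r between the paired probes of each gene given above and is not a separate result.

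Adm, the vasodilator peptide adrenomedullin, stood beside Angpt2 among the listed endothelial genes: its levels were -0.64, -0.69, -0.93 and -1.02 under estradiol benzoate, -0.96, -1.55, -1.30 and -1.72 under testosterone and -1.73, -1.52, -1.45 and -1.67 under vehicle. Estradiol benzoate minus vehicle was 0.77 (SE 0.156), with an adjusted p of 0.125 by limma, and testosterone minus vehicle 0.21. Edn1, the gene of the vasoconstrictor endothelin-1, was at -0.34 (SE 0.137) for estradiol benzoate and -0.11 for testosterone, both minus vehicle by its brighter probe, and at 0.02 for estradiol benzoate and 0.30 for testosterone by its dimmer probe 21719. By the brighter probe all 4 estradiol benzoate animals lay below all 4 vehicle animals, a gap between these groups that 7.82% of all probes had in one direction or the other. Ece1, which encodes the enzyme that makes active endothelin, was at 0.34 (SE 0.124) for estradiol benzoate and 0.22 for testosterone. None of the 3 passed the adjusted threshold.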
